A study of Canis lupus familiaris with 33 samples.

Results

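The regions described here are the MBD-seq peaks of beagle tissues that lie on autosomes 27 to 38, the high-numbered and mostly short chromosomes of the dog. They were chosen by position alone. Peaks that started in the first 3 Mb of a chromosome or within 2 Mb of its largest peak end were left out, and autosomes 1 to 26 were treated in the same way for comparison. This gave 428994 peaks over 11 tissue lists, 13% of the 3300391 peaks of the series, against 2267726 peaks on chromosomes 1 to 26.

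The series measured adult, healthy, untreated beagles, described as 1 male and 2 female dogs, although the titles carry 4 animal identifiers. Genomic DNA of brain (cerebrum, cerebellum), digestive organs (stomach, colon, liver, pancreas), lung, kidney, spleen and female organs (ovary, mammary gland) was sheared to about 300 bases and captured on beads with a methyl-CpG-binding domain, and the 600 and 800 mM eluates were sequenced. Per tissue, 2 animals gave an MBD library each, and 1 input library was made. In colon, mammary gland, ovary and stomach both MBD libraries were labelled female, and in the other 7 tissues 1 was female and the other, from animal jj8, male. The input came from the animal jj8 in 7 tissues, and from another in pancreas, ovary, kidney and mammary gland. The labels conflict for jj8, which is male in its MBD libraries and female in its input libraries. Both MBD libraries of a tissue shared 1 peak list, so a tissue has 1 value per measure, no spread within a tissue can be given, and the 11 lists are the units of the tests. They come from the same few animals, so p-values measure the spread between these lists only. The read depth behind the lists is unknown.

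In mammals the cytosine of a CpG dinucleotide can carry a methyl group, and the methyl-CpG-binding domain holds a fragment more tightly the more methylated CpGs it carries. A peak therefore marks sequence that is both methylated and rich in CpG. Sequence without a peak may be unmethylated or may hold few CpGs, and the lists alone cannot tell these apart. Dog autosomes are acrocentric, with the centromere near 1 end, and are numbered roughly by size. Chromosomes 27 and 36 carry homeobox gene clusters (HOXC and HOXD), which pattern the body axis, and chromosome 31 corresponds to human chromosome 21. Coordinates below are those of the lists, for which the submitters' processing notes name the build CanFam3.1. No genome or annotation of that build was used here, so regions are given by position, without genes or sequence.

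The name "short" fits the group only in part. By largest peak end the 12 chromosomes ran from 23.9 Mb (chromosome 38) to 45.9 Mb (chromosome 27). Chromosome 26, at 38.96 Mb, was shorter than 6 of them, and 11 of the 12 were among the 12 shortest autosomes. The positions kept spanned 373.5 Mb on chromosomes 27 to 38 and 1640 Mb on chromosomes 1 to 26.

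MBD peaks were sparser on chromosomes 27 to 38 in every tissue. The 12 chromosomes made up 18.55% of the positions kept but held 15.9% of the peaks. Peak density was 104 ± 16.6 peaks per Mb (SD, n = 11 lists), against 126 ± 15.5 (SD, n = 11) on chromosomes 1 to 26. The lowest density was 87.9 in colon, where chromosomes 1 to 26 had 109. Lung had 91.2 against 114, and liver 104 against 130. These 3 tissues and pancreas, with 90.2 against 112, had the largest gaps, of 19.3% to 20.1%. Cerebellum had 133 against 149, a gap of 10.35%, and ovary 135 against 156, a gap of 13.3%. Cerebrum (109.7 against 130.5), kidney (109 against 131), mammary gland (92.3 against 112), spleen (99.5 against 121) and stomach (96.4 against 118) lay between. The class difference was thus smaller in the cerebellum and ovary lists than in any of the other 9. Averaged over tissues, the log2 ratio of the densities was −0.27 ± 0.05 (SD, n = 11; lower in 11 of 11 lists; exact sign-flip permutation test, two-sided, p = 0.000977, adjusted p = 0.00117 over 6 measures). That p is the smallest that 11 lists allow.

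Less sequence was covered as well. Peaks covered 5.27% ± 0.899 (SD, n = 11) of the positions kept on chromosomes 27 to 38 and 6.75% ± 0.987 (SD, n = 11) on chromosomes 1 to 26. Pancreas had the lowest share, 4.16% against 5.46%, and ovary the highest, 6.98% against 8.57%. The log2 ratio was −0.36 ± 0.06 (SD, n = 11; lower in 11 of 11 lists; exact sign-flip permutation test, two-sided, p = 0.000977, adjusted p = 0.00117). Lung and liver had the lowest ratios, both −0.43, and cerebellum the highest, −0.24.

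**Figure D1:**
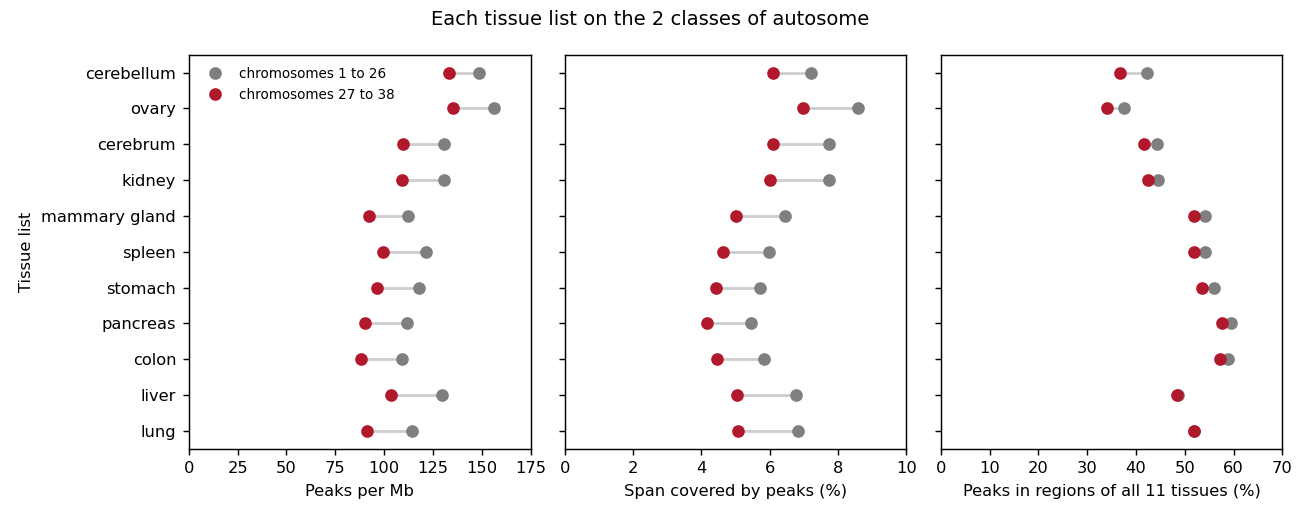
Values of the 11 tissue lists on chromosomes 27 to 38 (red) and 1 to 26 (grey): peaks per Mb, percent of the positions kept that peaks cover, and percent of peaks that lie in regions common to the 11 tissues. The red point lies below the grey one in every list for density, from 87.9 to 135 peaks per Mb against 109 to 156. In the third panel the points of liver and lung nearly coincide.

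The peaks that were present on chromosomes 27 to 38 were also slightly weaker and narrower. The fold enrichment of each peak was divided by the median of its list, taken over the autosomal peaks kept. On this scale the median peak of chromosomes 27 to 38 had a relative fold of 0.975 ± 0.0104 (SD, n = 11), against 1.006 ± 0.00203 (SD, n = 11). The log2 ratio was −0.05 ± 0.02 (SD, n = 11; lower in 11 of 11 lists; exact sign-flip permutation test, two-sided, p = 0.000977, adjusted p = 0.00117). Colon had the lowest relative fold, 0.962, and cerebellum the highest, 0.994. Median peak width was 305 ± 24.4 bases (SD, n = 11) against 322 ± 26.01 (SD, n = 11), with the largest gap in lung (320 against 349) and the smallest in cerebellum (292 against 301). Its log2 ratio was −0.08 ± 0.02 (SD, n = 11; lower in 11 of 11 lists; exact sign-flip permutation test, two-sided, p = 0.000977, adjusted p = 0.00117). The fold and width differences are small beside those in density and cover.

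The size of these gaps depended on the choice of chromosomes and of end positions. With the 12 shortest autosomes in place of numbers 27 to 38, which exchanges chromosome 27 for chromosome 26, the log2 ratio was −0.12 for density and −0.19 for cover. With no positions left out at the ends it was −0.20 for density and −0.18 for cover, and with 5 Mb left out at either end −0.38 and −0.59. Each of these values was lower in 11 of 11 lists. The ratio of fold was −0.02 with no positions left out (lower in 9 of 11 lists) and −0.07 with 5 Mb left out, and that of width −0.04 with the 12 shortest autosomes and −0.12 when the weaker 50% of each list was dropped. The chromosomes on either side of the boundary between the groups differed widely: chromosome 26 had a median of 178 peaks per Mb over the 11 lists, and chromosome 27 had 78.0.

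The 12 chromosomes differed more among themselves than the groups did from each other. As medians over the 11 lists, density ran from 55.9 peaks per Mb on chromosome 32 to 156 on chromosome 28, with a mean of 99.97 ± 26.5 (SD, n = 12 chromosomes). Chromosomes 1 to 26 ran from 67.6 (chromosome 22) to 184 (chromosome 9), with a mean of 121 ± 36.2 (SD, n = 26). The difference between the means is smaller than the SD within either group. All of the 12 except chromosome 32 lay inside the range of chromosomes 1 to 26, and 3 of the 12 (chromosomes 28, 30 and 34) lay above their median of 113. For covered share, chromosome 28 alone lay above the median of chromosomes 1 to 26. The test over lists therefore speaks for these 12 chromosomes as a sum, and not for each of them. Over the 38 autosomes Spearman's rho with largest peak end was 0.198 for density, 0.234 for cover and 0.326 for relative fold, given as a description, since all points come from the same lists. Within the 12 chromosomes it was −0.0490, 0.0699 and 0.112.

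**Figure D2:**
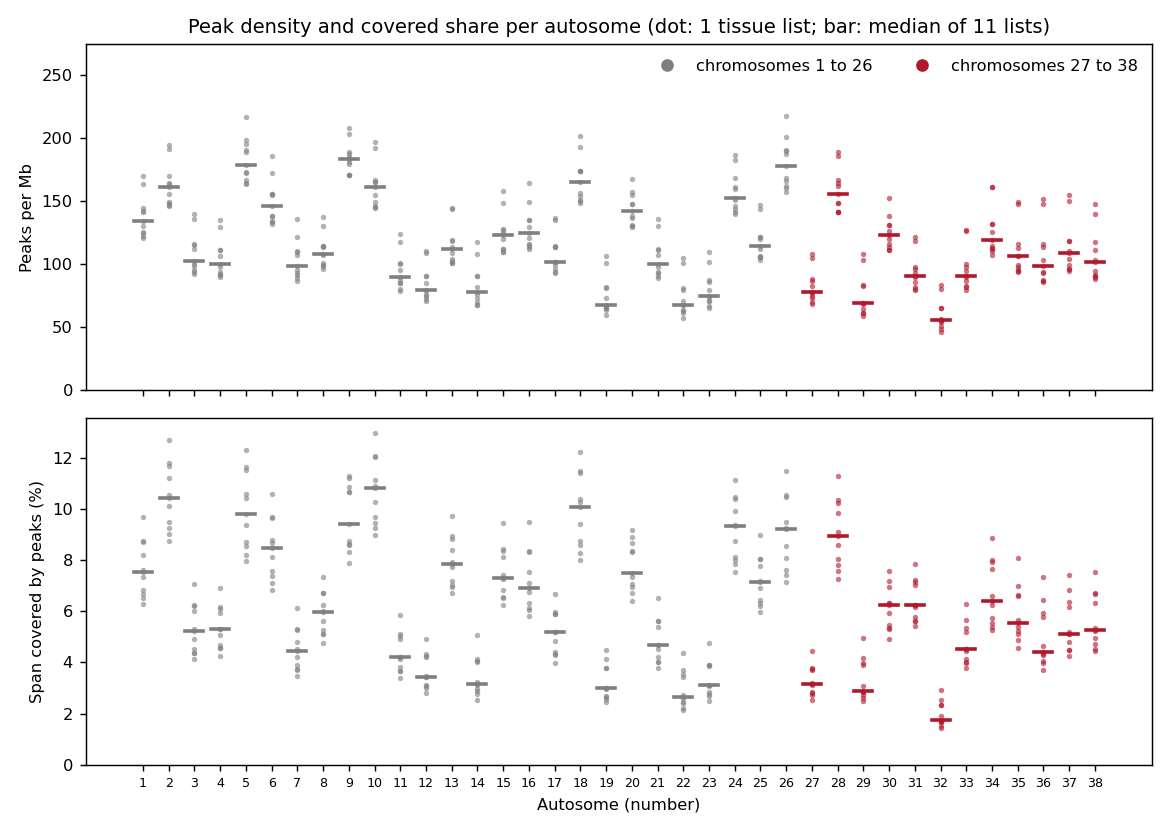
Peaks per Mb (top) and percent of the positions kept that peaks cover (bottom) for each of the 38 autosomes. A dot is 1 tissue list and a bar is the median of the 11 lists, with chromosomes 27 to 38 in red. Chromosome 28 stands high among the red chromosomes, at 156 peaks per Mb, and chromosome 32 is the lowest of all 38, at 55.9.

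Chromosome 32 was the poorest autosome in MBD peaks. It ranked last of 38 in density, covered share, relative fold, peak width and the share of its peaks in regions common to all tissues. Its density was 46.3 peaks per Mb in colon, 48.4 in pancreas, 50.7 in lung, 54.0 in mammary gland, 54.8 in spleen, 55.9 in liver, 57.0 in stomach, 65.1 in cerebrum, 65.3 in kidney, 80.3 in cerebellum and 83.6 in ovary. Ovary and cerebellum were thus highest and colon lowest, an order close to that of the list sizes. Peaks covered 1.45% (pancreas) to 2.93% (ovary) of its positions. The relative fold was 0.850 in colon and 0.998 in cerebellum, the widest gap between tissues on any of the 12 chromosomes.

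Chromosome 28 was the richest of the 12, with 142 peaks per Mb in pancreas, colon and mammary gland, 149 in lung and stomach, 156 in spleen, 162 in cerebrum, 164 in kidney, 167 in liver, 186 in cerebellum and 189.5 in ovary. It ranked 7 of 38 in density and 8 in covered share, at 8.96%. Its relative fold, 1.025 as the median over lists, was above 1 in all of them, from 1.01 (lung) to 1.04 (pancreas).

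Chromosome 31 combined few peaks with strong ones. It ranked 28 of 38 in density, with 79.6 (colon) to 121.5 (cerebellum) peaks per Mb, but 4 in relative fold, with a median of 1.051, and first in the share of peaks in regions of all tissues, at 58.9%. Chromosomes 27 and 29 had few peaks and weak ones. Chromosome 27 had 78.0 peaks per Mb and a relative fold of 0.930, and chromosome 29 had 69.0 and 0.926, ranks 36 and 37 of 38 in fold. Chromosomes 30 and 34 ranked 13 and 15 of 38, with 123 and 119 peaks per Mb. The smallest chromosomes, 33 and 35 to 38, formed a narrow group of 90.7 to 109 peaks per Mb, whose ranges over tissues overlapped. Across the 12 chromosomes density and cover, cover and fold, and fold and width rose together, with Spearman's rho of 0.846, 0.909 and 0.839. These values describe 12 points from the same lists and have no test.

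Along the chromosomes, covered sequence was concentrated in a few stretches. Of the 366 windows of 1 Mb on chromosomes 27 to 38, 34 (9.29%) had more than 20% of their bases covered by a peak of any tissue, and 152 (41.5%) had less than 5%. On chromosomes 1 to 26, 246 of 1626 windows (15.1%) passed 20% and 555 (34.1%) stayed under 5%. The median window was covered to 5.78% against 7.35%. The densest window lay on chromosome 31 at 36000001 to 37000000, 3.4 Mb from the largest peak end, where the union of all lists covered 70.2%. Single lists covered 53.7% (pancreas) to 63.8% (cerebrum) of it, and 236 of its 369 regions had a peak in all 11 tissues. The emptiest window lay on the same chromosome at 28000001 to 29000000, with 6 regions and 0.215% covered. Whether the assembly holds determined sequence throughout that window was not analysed here.

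The dense stretches lay at different ends. In chromosomes 28, 30, 31, 33, 37 and 38 the last 5 windows held 38.6% to 62.4% of the covered bases. Since the chromosomes differ in length, 5 windows are 13.9% of those on chromosome 28 and 27.8% of the 18 on chromosome 38. On chromosome 28 the last 5 held 38.6% of the covered bases and the first 5 held 6.42%. On chromosome 38 these shares were 62.4% and 8.73%. Chromosome 35 was the reverse, with 48.7% in its first 5 windows and 12.55% in the last 5, each 23.8% of its windows. Chromosome 27 also had more in its first 5 windows (31.8%) than in its last 5 (19.4%), each 12.5% of its windows. On chromosome 34 the peak of cover lay at 11000001 to 12000000, with 57.5% of the window covered by the union and 37.3% (pancreas) to 48.9% (cerebrum) by single lists. No window passed 20% on chromosomes 32 and 36, whose densest windows reached 7.87% and 17.8%. The plot of cover by distance shows these courses for each chromosome, with the range of the 11 lists.

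**Figure D3:**
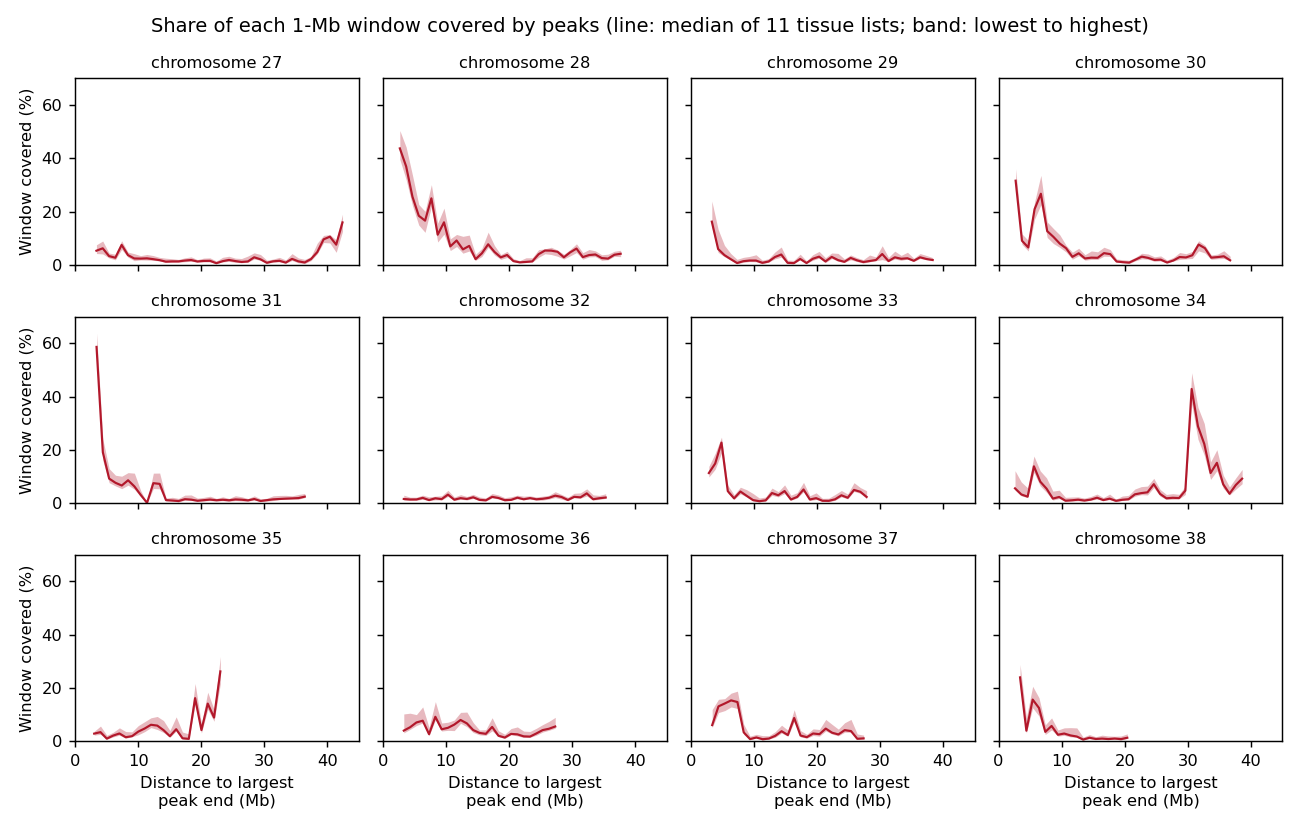
Percent of each 1-Mb window covered by peaks on chromosomes 27 to 38, against the distance of its centre from the largest peak end (Mb). The line is the median of the 11 tissue lists and the band runs from the lowest to the highest list. Chromosomes 28, 30 and 31 rise toward the largest end, chromosome 34 has its maximum 30.6 Mb away from it, and chromosome 32 stays flat.

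At matched distances from the ends the density gap was uneven. Between 2 and 7 Mb before the largest peak end the median list had 188 peaks per Mb on chromosomes 27 to 38 and 203 on chromosomes 1 to 26, a mean log2 ratio of −0.10. Between 7 and 12 Mb it had 101 against 142 (−0.48), between 12 and 17 Mb 72.3 against 114 (−0.59), and between 17 and 22 Mb, where the end rule leaves 11 of the 12 chromosomes, 63.3 against 102 (−0.66). From the other end, the values were 98.5 against 138 at 3 to 8 Mb (−0.47), 84.95 against 97.8 at 8 to 13 Mb (−0.19) and 80.1 against 101 at 13 to 18 Mb (−0.32). In each of these 7 intervals chromosomes 27 to 38 were lower in 11 of 11 lists. Among these 7 intervals the gap was smallest at 2 to 7 Mb before the largest end and widest at 17 to 22 Mb before it. Over 2 to 12 Mb before the largest end as a whole, the log2 ratio was −0.24 for density and −0.34 for cover (exact sign-flip permutation test, two-sided, p = 0.000977, adjusted p = 0.00117 for both). In the ends left out by the rule, the median list had 254 against 280 peaks per Mb in the last 2 Mb (−0.15) and 150 against 203 in the first 3 Mb (−0.42). Those ends held 22.85% of all peaks on chromosomes 27 to 38 and 12.9% on chromosomes 1 to 26, since they take up more of a short chromosome.

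To compare sharing, overlapping peaks of all lists were merged, and a tissue was taken as present in a merged region where 1 of its peaks overlapped it. Chromosomes 27 to 38 held 66290 such regions, 177.5 per Mb, against 202 per Mb on chromosomes 1 to 26. Of them, 15435 (23.3%) had a peak in all 11 tissues, where the share over all autosomes was 25.4%. Regions of 1 tissue numbered 13404 (20.2%), where the share over all autosomes was 18.8%. Per Mb there were 41.3 regions of all tissues on chromosomes 27 to 38 and 52.0 on chromosomes 1 to 26, and 35.9 regions of 1 tissue against 37.4. Widely shared regions thus made up more of the gap than those of 1 tissue. Regions of all tissues were also narrower, with a median of 714 bases against 761, and held 47.6% of the covered bases against 51.25%.

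**Figure D4:**
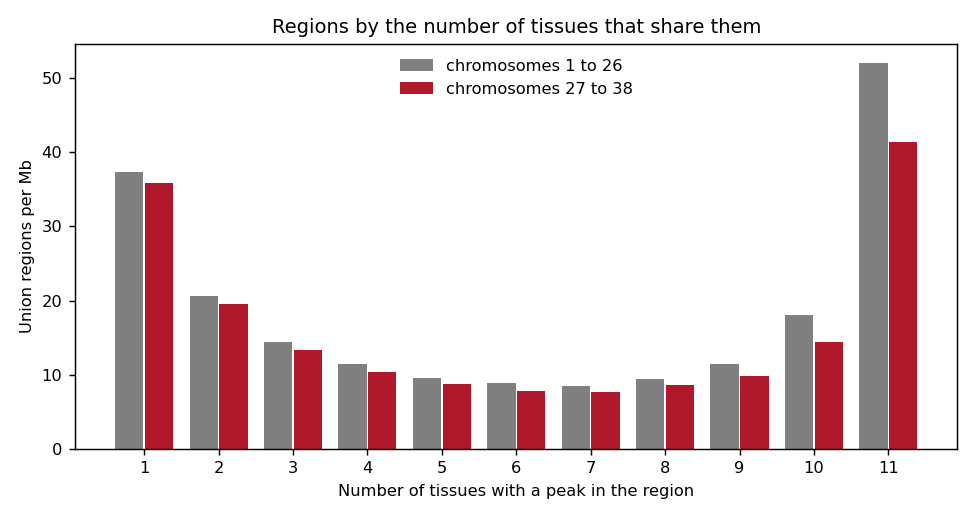
Union regions per Mb by the number of tissues with a peak in them, on chromosomes 1 to 26 (grey) and 27 to 38 (red). The bars differ most for regions of all 11 tissues, 52.0 against 41.3 per Mb, and little for regions of 1 tissue, 37.4 against 35.9.

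Counted over the peaks of each list, 47.9% ± 8.05 (SD, n = 11) of the peaks on chromosomes 27 to 38 lay in regions of all tissues, against 50.1% ± 7.20 (SD, n = 11). The share was lower in 11 of 11 lists, by 2.22 ± 1.48 percentage points on average (SD; exact sign-flip permutation test, two-sided, p = 0.000977, adjusted p = 0.00117). A region of all tissues counts in all 11 lists by definition, so the 11 shares are tied to each other. Part of their agreement is thus built in, and the p-values of this measure should be read with that limit. Cerebellum had the widest gap, 36.65% against 42.2%, and ovary the next, 34.0% against 37.5%. Liver (48.5% against 48.7%) and lung (51.8% against 52.0%) had the smallest gaps. Regions of all tissues are the same in every list, so a list's share depends largely on how many other peaks it holds. The order of the tissues was nearly the reverse of that of their density gaps, and is not a separate result. The size of this difference depends on the positions, chromosomes and lists used, and so does its direction in some lists. At equal list sizes liver (0.163 points) and lung (0.0202 points) were higher on chromosomes 27 to 38, which left 9 of 11 lists lower. The share was likewise lower in 9 of 11 lists without chromosome 27, with the 12 shortest autosomes, and with the weaker 50% of each list dropped. With no positions left out the difference was −0.564 points, lower in 8 of 11 lists, and no longer passed (exact sign-flip permutation test, two-sided, adjusted p = 0.271), and with 5 Mb left out at either end it was −4.45 points. Without chromosome 27 it was −1.29 points (exact sign-flip permutation test, two-sided, adjusted p = 0.0199). It was, with the 12 shortest autosomes, also −1.29, over 2 to 12 Mb before the largest end −3.55 and with the weaker 50% of each list dropped −1.45. With a tissue counted only where it covered at least 50% of a region, the difference was −0.857 points, lower in 9 of 11 lists (exact sign-flip permutation test, two-sided, adjusted p = 0.0234). Without cerebellum and ovary, the lists with the most peaks, it was −3.55 points (exact sign-flip permutation test, two-sided, adjusted p = 0.00469). There a region of all tissues needs a peak only in the lists left, so this value is not the same measure as the others.

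Peaks of regions found in 1 tissue made up 2.60% ± 3.97 (SD, n = 11) of the peaks on chromosomes 27 to 38 and 2.36% ± 3.45 (SD, n = 11) on chromosomes 1 to 26. The difference of 0.237 ± 0.565 points (SD; higher in 8 of 11 lists) did not exceed the spread between lists (exact sign-flip permutation test, two-sided, p = 0.234, adjusted p = 0.234). Cerebellum had 12.1% against 10.6% and ovary 8.70% against 7.75%, while liver had 1.21% against 1.71%. In numbers, cerebellum alone accounted for 6050 of the 13404 regions of 1 tissue (45.1%, against 42.0% on chromosomes 1 to 26) and ovary for 4400 (32.8% against 32.4%). Liver held 467 (3.48% against 5.93%), which is 1.25 per Mb against 2.22, and pancreas the fewest, 70. Of the 5397 regions with a peak in 10 tissues, cerebellum was the missing tissue in 1423 (26.4%, against 33.7%) and lung in 720 (13.3% against 10.6%).

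The tissues did not share the deficit of chromosomes 27 to 38 equally. To show this, log2 density was centred on the average of each tissue and of each chromosome over the 38 autosomes. Cerebellum lay above 0 on 10 of the 12 chromosomes and on 10 of the 26 others, with its highest values within the 12 on chromosomes 36 and 38 (0.18 each), 29 (0.17) and 37 (0.15). Of all 38 autosomes its value was highest on chromosome 19 (0.21). Ovary lay above 0 on 9 of the 12 and on 11 of the 26 others, with its highest value on chromosome 29 (0.19). Liver and lung lay above 0 on 2 of the 12 each, against 16 and 19 of the 26 others, and were lowest on chromosome 29 (both −0.12). Chromosomes 28 and 30 ran the other way, with cerebellum at −0.08 and −0.16 and lung at 0.07 and 0.05. Mammary gland stayed within −0.05 and 0.03 on all 12. The same signs were seen on peak-poor chromosomes among the 26 others: on chromosome 22 cerebellum and ovary were both at 0.16, liver at −0.07 and lung at −0.06, and on chromosome 14 the values were 0.08, 0.15, −0.04 and −0.08. Since these values are centred, a high value in 1 list lowers the others, and they carry no test.

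**Figure D5:**
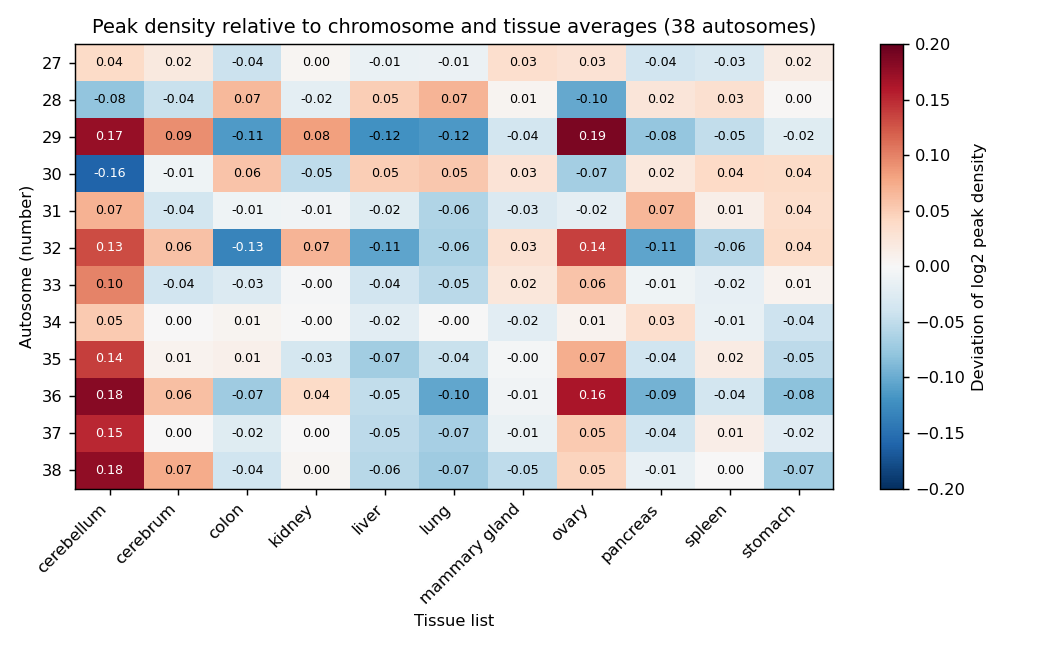
Deviation of log2 peak density from the averages of each tissue and chromosome over 38 autosomes, for chromosomes 27 to 38 (rows) and 11 tissue lists (columns). Red is above and blue below average. Cerebellum and ovary are red on most rows, up to 0.19 for ovary on chromosome 29, and blue on chromosomes 28 and 30.

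Cerebellum and ovary, highest in this order of tissues, also had the longest lists. List size did not follow the order throughout. Liver and kidney had lists of 306766 and 307360 peaks, but mean deviations over the 12 chromosomes of −0.038 and 0.007. At equal list sizes, keeping the strongest peaks of each list, the log2 density ratio was −0.16 in cerebellum and −0.22 in ovary, and −0.26 to −0.33 in the other 9 lists, so cerebellum and ovary had the smallest gaps here too. Equal list sizes do not equalise sequencing depth, and the part of either in this order was not tested. Among regions with a peak in at least 2 tissues, cerebellum had a peak in 76.8% on chromosomes 27 to 38 and in 73.8% on chromosomes 1 to 26. Ovary had 83.5% against 83.1%, and the other 9 tissues were lower on chromosomes 27 to 38, by 1.43 points in cerebrum to 4.65 points in liver and 4.56 in lung. Fold in the regions common to all tissues was also set against the 11-tissue mean of each region. On the log2 scale the median of this value was 0.07 higher on chromosomes 27 to 38 in cerebellum and 0.04 higher in ovary. It was lower in lung (−0.05) and liver (−0.03), and in the other 7 tissues the difference lay between −0.02 and 0.01. Why the lists of cerebellum and ovary differ was not tested.

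Tissues were also split by input animal and by sex of the MBD libraries, and neither split differed beyond the spread between tissues. Among the 4 tissues with the other input animal the log2 density ratio was −0.26 ± 0.04 (SD, n = 4), and among the 7 with jj8 it was −0.28 ± 0.06 (SD, n = 7; two-sided exact permutation test over 330 splits, p = 0.703). The split by sex follows the labels of the MBD libraries, which conflict with those of the input for jj8. Where both MBD libraries were labelled female it was −0.27 ± 0.05 (SD, n = 4), and elsewhere −0.27 ± 0.06 (SD, n = 7; two-sided exact permutation test, p = 0.988). For relative fold the exact permutation p-values were 0.988 and 0.53 in this order, and all 4 had an adjusted p of 0.988. These tests do not show that the groups are alike.

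The strongest region shared by all tissues was taken from each of the 12 chromosomes by its mean relative fold, a region having in each list the fold of its highest peak. That of chromosome 38 stood above the rest. It lay at 21097222 to 21097892, 671 bases long, with a mean relative fold of 6.21 ± 2.12 (SD, n = 11 lists). The highest such region on any of chromosomes 1 to 26 had 5.61. Its fold was 24.7 in cerebrum, 27.65 in ovary, 30.7 in cerebellum, 31.8 in spleen, 36.0 in pancreas, 37.7 in kidney, 38.8 in liver, 54.65 in stomach, 57.6 in lung, 64.2 in mammary gland and 70.4 in colon. Folds of different lists are not on 1 scale, and divided by the list medians they ran from 4.02 in cerebrum to 9.53 in both mammary gland and lung. Each list covered 493 (cerebellum) to all 671 (cerebrum) of its bases.

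The strongest regions of the other 11 chromosomes had mean relative folds between 4.17 and 4.67, close to the median of 4.48 for the strongest regions of chromosomes 1 to 26. The highest of these lay on chromosome 36 at 21447262 to 21449826 (4.67 ± 1.48, SD, n = 11), on chromosome 29 at 39009235 to 39020604 (4.63 ± 1.49, SD, n = 11) and on chromosome 33 at 23446780 to 23453023 (4.49 ± 1.35, SD, n = 11). Chromosome 32, with the lowest peak density, had a region of 4.26 ± 1.13 (SD, n = 11), at 18541333 to 18542818. Mammary gland had the highest relative fold in 10 of the 12 strongest regions, and pancreas in those of chromosomes 34 and 36. On chromosome 38 mammary gland and lung were nearly equal (9.533 and 9.527). The same count is not given here for chromosomes 1 to 26 or for all shared regions. It is therefore not read as a trait of these 12 chromosomes.

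The widest region shared by all tissues lay on chromosome 31 at 37438448 to 37464979 and spanned 26532 bases, of which each list covered 23170 (pancreas) to 25663 (mammary gland). Chromosome 38 had one of 21161 bases at 20331580 to 20352740, and chromosome 28 one of 19338 bases at 38418926 to 38438263. The widest region of chromosome 32 was the shortest of the 12, at 6013 bases. The median of the 12 was 11364 bases, where the corresponding median of chromosomes 1 to 26 was 14846 bases and their range 7837 to 59037. The strongest and widest regions are maxima over 713 to 2441 regions of all tissues per chromosome on 27 to 38 and 1379 to 7247 on 1 to 26. A maximum tends to grow with the number of regions, so these values describe single regions and do not compare the groups.

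Regions found in 1 tissue were weaker. Their strength is not independent of the grouping, since a region counts in a list only where a peak was called. The strongest of each tissue on chromosomes 27 to 38 had a relative fold of 1.052 (pancreas) to 2.12 (cerebellum). These are values of 1 list each, whereas those given above for the strongest regions of all tissues are means over 11 lists. The cerebellum region, at 28453154 to 28453982 of chromosome 37, had a fold of 14.1. That of colon, at 19993731 to 19994454 of chromosome 36, had a fold of 14.7 and a relative fold of 1.85. That of ovary, also on chromosome 37, lay at 17810962 to 17811459 and had a fold of 11.35 and a relative fold of 1.77, and that of mammary gland, on chromosome 27 at 21363324 to 21364031, had 11.6 and 1.72. In cerebrum, the strongest one reached a fold of 6.84 and a relative fold of 1.11, at 8739750 to 8740305 of chromosome 37. Chromosomes 27 and 37 each held the strongest region of 3 tissues, and chromosomes 29, 30, 33, 34, 35 and 38 of none.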

How the data were processed

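The 11 peak lists (22 MBD and 11 input libraries) were used as deposited. The labels name neither aligner, peak caller nor filters, nor how libraries were combined; CanFam3.1 is given per the submitters' processing notes. Columns were read by place in the narrow-peak format. The deposited fold enrichment of each peak is a ratio whose control is not given in the sources used here. The score deposited by the authors was the whole part of 10 times the −log10 p-value for 100% of peaks, and the −log10 p and q values, as deposited, were not used further. Fold, score and p belong to single peaks and are the authors' own.

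Per list and class, peaks were counted by start, and merged peaks were clipped to the positions kept. Union regions joined overlapping or touching peaks, with presence from 1 base. Class differences were tested by flipping signs over all 2048 arrangements of 11 lists, with Benjamini-Hochberg adjustment over 6 measures, and groups of tissues over all splits, adjusted over 4 tests. Chromosomes were described without a test. Named regions were, by rule, the strongest and widest of all tissues per chromosome, the strongest of 1 tissue per list, and the densest and emptiest window. Members, lists and alternatives were chosen with earlier results of these data known. The planned measures per CpG and per determined base, and the gene lists needed a genome of the build and were not analysed here. The computations were tested on simulated lists. Python 3.11.15, numpy 2.4.6, pandas 2.3.3 and matplotlib 3.10.9 were used.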

Additional observations from a re-analysis of the deposited data

Results flagged for a closer look

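For the percent of peaks in regions of 1 tissue, chromosomes 27 to 38 minus 1 to 26, single tissues stood far from the others of their group. Cerebellum, at 1.58 points, lay apart from the 7 tissues with input jj8, where the next value was 0.154 in cerebrum. It also lay apart from the 7 tissues with 1 male MBD library, where the next was 0.279 in kidney. Ovary, at 0.950 points, lay apart from the 4 tissues with 2 female MBD libraries, where the next was 0.119 in mammary gland. In all, 24 groups were looked at and 3 held such a value, with the same cerebellum value counted in both of its groups. Chance gives about 1 in 20 for separate groups. These groups overlap and come from the same lists, so 3 of 24 cannot be set against that rate. At equal list sizes the differences were 1.12 points in cerebellum and 0.987 in ovary. Cerebellum and ovary also had the highest base shares, 10.6% and 7.75% on chromosomes 1 to 26, where the other 9 tissues had 0.163% to 1.71%. As a ratio of the shares they did not stand apart: it was 1.15 in cerebellum and 1.12 in ovary, against 1.198 in kidney, 1.27 in mammary gland and 1.31 in stomach.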

How the results depend on the processing

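Density, covered share, fold and width of chromosomes 27 to 38 were lower than those of chromosomes 1 to 26 under every alternative run, with mean log2 ratios of −0.38 to −0.12, −0.59 to −0.18, −0.07 to −0.02 and −0.12 to −0.04. Leaving out 1 tissue gave −0.28 to −0.27, −0.38 to −0.36, −0.05 to −0.04 and −0.08 to −0.07, and leaving out 1 of the 12 chromosomes −0.36 to −0.21 for density. Among the 5 lists with a shortest peak over 200 bases, a number too small to pass (smallest exact permutation p 0.0625, adjusted p = 0.075), they were −0.26, −0.36, −0.046 and −0.080, with −2.17 points for the share of peaks in regions of all tissues. That share differed by −4.45 to −0.564 points, the latter with no positions left out at the ends. Without 1 tissue it differed by −3.27 to −2.04 points, with regions of all tissues redefined over the lists left. The share in regions of 1 tissue never passed (0.154 to 0.396 points). The differences by input animal and sex, all near 0, changed sign in places. Among the 50% of peaks that were highest in fold they were 0.00347 for fold by input, −0.00866 for density by sex and 0.0108 for fold by sex. Without colon and stomach the differences by sex were 0.03075 for density, the highest of any alternative for it, and 0.00307 for fold. Without 1 tissue they ran from −0.00517 to 0.0345 (density by input), −0.00748 to 0.00541 (fold by input), −0.0218 to 0.0199 (density by sex) and −0.0163 to −0.00231 (fold by sex). The cause was not tested. Scaling the spans to the share of 100-kb windows that hold a peak gave −0.27 for density. That share was 99.65% on chromosomes 27 to 38 and 99.94% on chromosomes 1 to 26, so this alternative could hardly change the value. It was added after the data were seen. So were leaving out cerebellum and ovary and, for fold and width, keeping only peaks in regions of all tissues. Measures per CpG or per determined base were not run.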
